A study of Mus musculus with 6 samples.

Results

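The peroxisome proliferator-activated receptors (PPARs), their coactivators and the nuclear receptors that work beside them were examined in mouse kidneys after ischemia-reperfusion injury (IRI). The 9 genes were chosen by name, as those of the deposited table with the symbols *Ppara*, *Ppard*, *Pparg*, *Rxra*, *Ppargc1a*, *Ppargc1b*, *Esrra*, *Hnf4a* and *Nr1h4*, out of 21367 genes in all. mRNA was sequenced from 3 *Ptpn6*+/mev mice and 3 wild-type littermates, 1 library a mouse, all 7 weeks old and on a C57BL/6 background. Both groups lost the right kidney, had the left renal pedicle clamped for 34 min, and left kidney tissue was taken for RNA at 24 h of reperfusion. The *Ptpn6*+/mev mice carried 1 copy of the viable motheaten allele, a mutation at a splice site of *Ptpn6*, which encodes the tyrosine phosphatase SHP-1, in every cell of the body, and the labels call this genotype an SHP1 knockdown. Uninjured kidneys and fenofibrate-treated mice were not analysed here, so every level below is that of an injured kidney.

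PPARs are ligand-activated transcription factors that bind DNA as partners of a retinoid X receptor (RXR), of which RXRα is the form encoded by *Rxra*. PPARα switches on fatty acid uptake and oxidation, PPARδ is a widely expressed relative with overlapping targets, and PPARγ is the receptor of fat cell differentiation. In the kidney, the proximal tubule depends on fatty acid oxidation and is a main site of PPARα. The coactivators PGC-1α (*Ppargc1a*) and PGC-1β (*Ppargc1b*) dock on PPARs and on the estrogen-related receptor ERRα (*Esrra*) and raise transcription of mitochondrial genes. HNF4α (*Hnf4a*) is a nuclear receptor that maintains the epithelial program of proximal tubule cells and hepatocytes, and FXR (*Nr1h4*) is the receptor for bile acids.

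The libraries held 10271590 to 12361745 counts each. Wild-type replicate 2 stood apart from the other libraries: its TMM scaling factor was 0.929 against 0.994 to 1.03, and its 10 most abundant genes held 12.6% of its counts against 9.21% to 10.9%. *Ptpn6* itself had FPKM values (fragments per kilobase of transcript, scaled to library size) of 11.85, 14.66 and 13.61 in *Ptpn6*+/mev kidneys and 17.47, 10.87 and 15.44 in wild-type kidneys. These overlapped, with a log2 fold change of -0.19 (SE 0.17, adjusted p = 0.715 in edgeR's quasi-likelihood test), and a splice mutation need not change the amount of counted mRNA, so this level does not check the labels. Replicate numbers were read as separate mice.

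The 9 mRNAs spanned about 2 orders of magnitude in these kidneys. Averaged over the 6 libraries, *Hnf4a* was the most abundant at an FPKM of 160, followed by *Nr1h4* at 86.4, *Esrra* at 55.4 and *Rxra* at 31.7. *Ppara* had an FPKM of 19.5, *Ppard* 6.96, *Ppargc1a* 6.39, *Ppargc1b* 2.1 and *Pparg* 1.34. *Hnf4a* was thus among the abundant genes of the kidney, with only 4.13% of the tested genes above it, whereas 87.5% were above *Pparg*. Some neighbours in this order were not separated by their spread. The ranges of *Nr1h4* (59.62 to 101.08) and *Esrra* (52.09 to 59.69) touched, although *Nr1h4* was above *Esrra* in 6 of 6 libraries. *Rxra* was above *Ppara* in 5 of 6 libraries, the exception being wild-type replicate 2. *Ppard* was above *Ppargc1a*, and *Ppargc1b* above *Pparg*, in 5 of 6 libraries each, the exceptions being *Ptpn6*+/mev replicate 1 for the first pair and replicate 2 for the second. *Esrra* varied least over the 6 libraries, with a coefficient of variation of 5.64%, and *Pparg* most, with 40.8%.

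**Figure D1:**
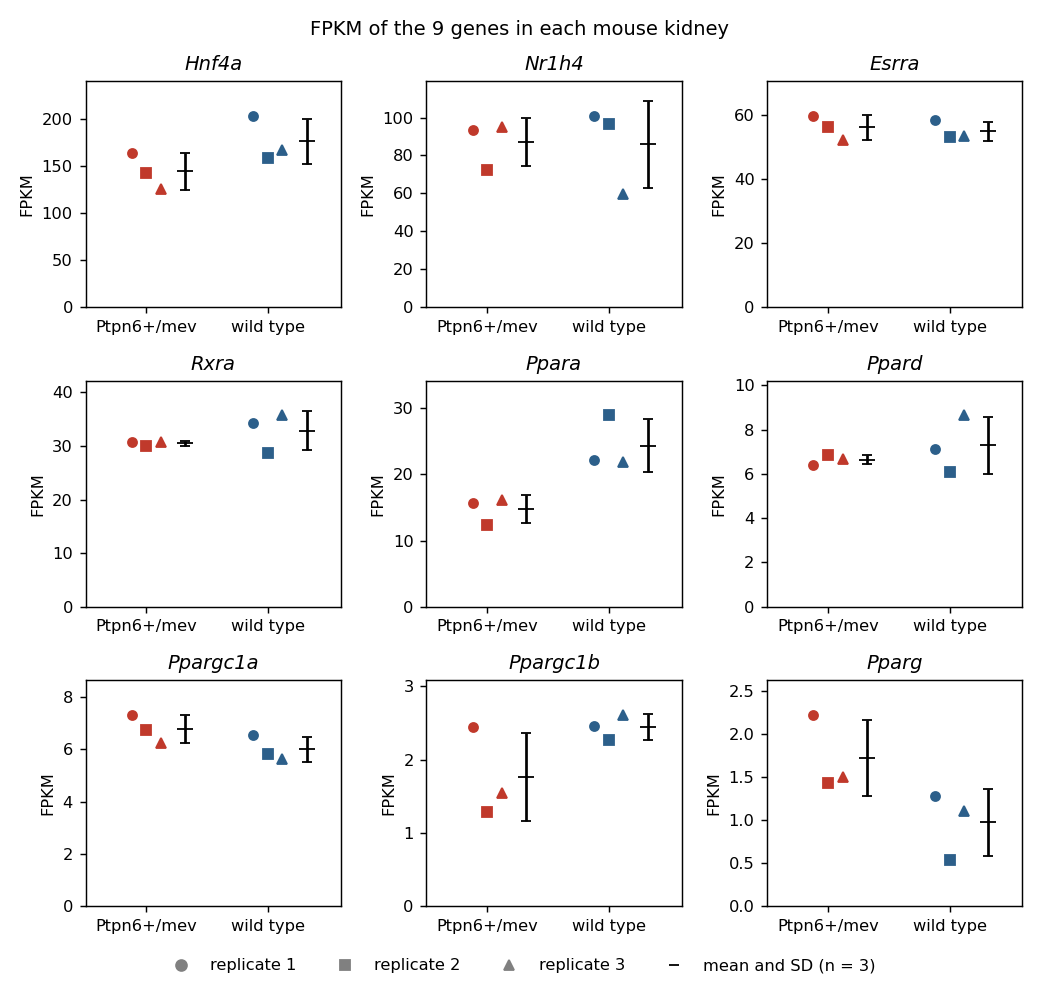
FPKM (vertical axes, each starting at 0) of the 9 genes in each mouse kidney, with points for single libraries and bars for the mean and SD of 3 mice per group. The groups are apart for *Ppara*, at 12.34 to 16.14 against 21.79 to 28.94, and for *Pparg*, at 1.43 to 2.22 against 0.54 to 1.28, and overlap for the other 7 genes.

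The first question was which of these regulators differed between *Ptpn6*+/mev and wild-type kidneys. *Ppara* and *Hnf4a* had the smallest p-values, both on the lower side, and *Pparg* was the only one with a positive fold change in this fit to counts. All 9 genes passed the filter on low counts, and none had an adjusted p under 0.05 in edgeR's quasi-likelihood test, which called 18 of 13036 tested genes, or 0.138%. At an unadjusted p under 0.05 this test gave 2 of the 9, both lower in *Ptpn6*+/mev kidneys, against 12.2% of all tested genes (6.71% lower and 5.53% higher). In 8 of the 9 genes the fold change was negative, with a median of -0.15 on the log2 scale, beside a median of -0.002 over all tested genes. Without wild-type replicate 2, 6 were negative and 3 positive. With limma on log2(FPKM + 1), 5 were negative and 4 positive, in a fit whose median over all genes was 0.062. Other tools on the same counts called 1 or 2 of the 9 at an adjusted p under 0.05. edgeR's exact test called *Ppara* as lower, with 2.99% of all genes called and 1.78% called as lower. The DESeq2 Wald test also called *Ppara* (2.97% of all genes, 1.88% lower), and limma-voom with sample quality weights called *Ppara* and *Hnf4a* (3.77% of all genes, 2.22% lower). The groups did not overlap in FPKM for *Ppara* on the lower side, where 6.38% of tested genes did not overlap, and for *Pparg* on the higher side, where 14% did not.

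**Figure D2:**
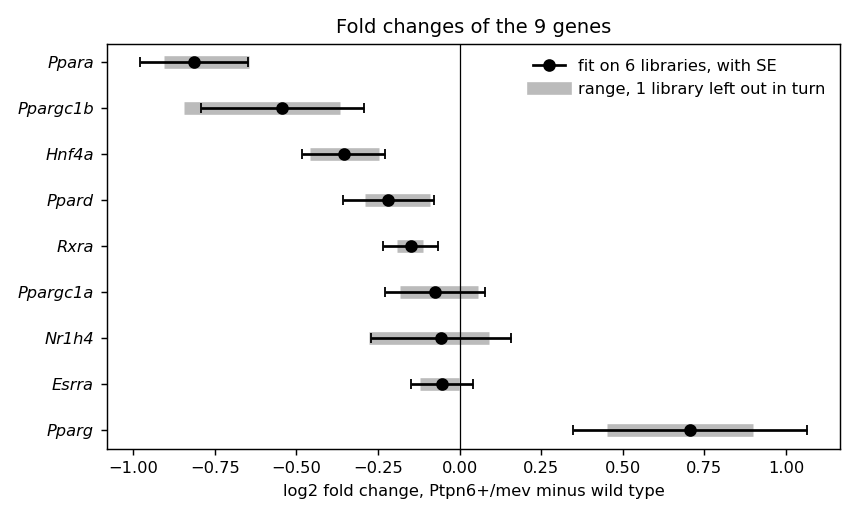
Log2 fold change (*Ptpn6*+/mev minus wild type, horizontal axis) of the 9 genes from the fit to 6 libraries, with SE bars and, in grey, the range when each library was left out in turn. *Ppara* lies lowest at -0.81 and *Pparg* highest at 0.71, and the grey ranges of *Ppargc1a* and *Nr1h4* span 0.

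*Ppara* (ENSMUSG00000022383, chr15:85734983-85802819, plus strand, GRCm38), the receptor of the fatty acid oxidation program, was 1.76-fold lower in *Ptpn6*+/mev kidneys. Its FPKM was 15.73, 12.34 and 16.14 in *Ptpn6*+/mev mice and 22.23, 28.94 and 21.79 in wild-type mice. Every *Ptpn6*+/mev kidney was below every wild-type kidney, and wild-type replicate 2 was the highest of all. Group means were 14.7 ± 2.09 and 24.3 ± 4.01 (SD, n = 3), with a log2 fold change of -0.81 (SE 0.17), an unadjusted p of 0.00119 and an adjusted p of 0.104 in edgeR's quasi-likelihood test. Only 1.13% of the tested genes had a smaller p. Adjusted values for *Ppara* were smaller with edgeR's exact test (p = 0.00155) and with DESeq2 (p = 0.00187). Without wild-type replicate 2 the fold change of *Ppara* was smaller, at -0.64, and its adjusted p in edgeR's quasi-likelihood test was 0.0458, in a fit that called 1.77% of all genes.

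The 250 bases before the annotated start of *Ppara* (RefSeq, GRCm38.p6, chr15:85735526-85735775, plus strand) are shown because *Ppara* had the smallest p of the 9 genes in the fit to counts. Capitals mark 2 GC boxes, the letters GGGCGG on either strand, which bind Sp1-type factors. Capitals also mark, in this window and the windows below, AGGTCA, the core element read by many nuclear receptors, where present.

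Ppara: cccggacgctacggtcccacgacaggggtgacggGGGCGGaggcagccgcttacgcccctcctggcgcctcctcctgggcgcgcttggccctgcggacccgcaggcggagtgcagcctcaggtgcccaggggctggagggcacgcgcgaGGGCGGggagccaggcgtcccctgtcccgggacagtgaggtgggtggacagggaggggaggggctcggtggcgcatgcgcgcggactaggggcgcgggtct

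The window of *Ppara* had a GC content of 76.4%, against a median of 52.4% over the 32851 windows of the RefSeq table, and held no AGGTCA on either strand. In the copy of that table used here, 12 windows belonged to 8 of the 9 genes, and none to *Ppargc1b*. A GC box was found in 32.7% of all windows and in 7 of the 12. A direct repeat of AGGTCA with 1 base of any kind between the copies, the arrangement bound by PPAR with RXR, was in 0.0335% of all windows and in 0 of the 12 windows of these genes. The longer element TCAAGGTCA, which contains AGGTCA and is read by ERRα, was in 0.387% of all windows and likewise in 0 of the 12. AGGTCA was in 4 of the 12 windows, 2 of *Pparg*, 1 of *Nr1h4* and 1 of *Rxra*, and in 14% of all windows. A match is a string of letters and not a measured binding site.

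The lower *Ppara* was accompanied by lower levels of part of the proximal tubule markers. All 15 such markers were tested and none was at 0. Of these, 8 were lower and 0 higher at an unadjusted p under 0.05 in edgeR's quasi-likelihood test. Over all tested genes 6.71% were lower and 5.53% higher at that level. The median log2 fold change of the 15 markers was -0.46. *Slc22a8*, an organic anion transporter, was the only one that fell at an adjusted p of 0.0443, with a log2 fold change of -0.91. The summed FPKM of the list was 3319 to 4223 in *Ptpn6*+/mev kidneys and 3130 to 11701 in wild-type kidneys. That upper value came from *Kap*, at 10201 in wild-type replicate 2, and without *Kap* the sums were 1130 to 1341 and 1500 to 1772 and did not overlap. Of the next most abundant markers, the peptidase gene *Ggt1* had a log2 fold change of -0.12 and the phosphate transporter gene *Slc34a1* one of -0.34, and neither passed an unadjusted p of 0.05. The markers *Slc6a19* (-0.16), *Slc5a2* (-0.037) and *Slc5a12* (0.0096), named after their values were seen, did not pass that level either. Among 9 tubular injury genes, 4 were higher and 1 lower at that level, with summed FPKM of 26402 to 32314 against 29727 to 38500, carried mainly by *Spp1*. Liver markers were lower too: of 6 listed 5 were tested, 3 were lower and 0 higher at an unadjusted p under 0.05, with a median log2 fold change of -1.07, summed FPKM of 192 to 217 against 293 to 412 and *Ahsg* at 0 throughout. That sum was carried mainly by *Fga* (145.26 to 179.69 against 244.91 to 374.18), while *Ttr* had a log2 fold change of 0.31. In bulk kidney, fewer proximal tubule cells and less mRNA per cell cannot be told apart, and the part of these markers in the difference of *Ppara* was not tested.

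*Ppard* (chr17:28232700-28301474, plus strand), the widely expressed isotype, did not pass the test. Its FPKM was 6.42, 6.83 and 6.68 in *Ptpn6*+/mev kidneys and 7.13, 6.07 and 8.65 in wild-type kidneys. The *Ptpn6*+/mev values lay close together within the wild-type range. Means were 6.64 ± 0.207 and 7.28 ± 1.30 (SD, n = 3), with a log2 fold change of -0.22 (SE 0.14, adjusted p = 0.599 in edgeR's quasi-likelihood test). Without wild-type replicate 3 it was -0.090.

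*Pparg* (chr6:115360951-115490399, plus strand), the isotype of fat cell differentiation, was the scarcest of the 9 and, in the fit to counts, the only one with a positive fold change. Its FPKM was 2.22, 1.43 and 1.5 in *Ptpn6*+/mev mice and 1.28, 0.54 and 1.10 in wild-type mice. Every *Ptpn6*+/mev kidney was above every wild-type kidney, and wild-type replicate 2, the highest for *Ppara*, was the lowest here. Means were 1.72 ± 0.437 and 0.973 ± 0.386 (SD, n = 3), with a log2 fold change of 0.71 (SE 0.36), an unadjusted p of 0.0850 and an adjusted p of 0.487 in edgeR's quasi-likelihood test. Few reads stood behind these values. *Pparg* had 45, 28 and 33 counts in *Ptpn6*+/mev libraries and 27, 12 and 29 in wild-type libraries. The exact Poisson 95% intervals, which cover counting error only, were 18.6 to 40.5 for *Ptpn6*+/mev replicate 2 and 17.8 to 39.3 for wild-type replicate 1, so the gap between the nearest *Ptpn6*+/mev and wild-type kidneys was not detectable at this depth. Without wild-type replicate 2 the log2 fold change of *Pparg* was 0.45.

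Fat around the kidney also carries *Pparg*, and adipocyte markers differed widely between libraries of 1 group. Summed FPKM of 7 adipocyte markers was 72.3, 1.49 and 0.98 in *Ptpn6*+/mev kidneys and 95.5, 11.7 and 79.3 in wild-type kidneys. *Cidec* made up 10.38 of the 11.7 in wild-type replicate 2, and was 10.77 and 7.98 in wild-type replicates 1 and 3. Of the 7 markers 5 were tested, and 0 had an unadjusted p under 0.05 in edgeR's quasi-likelihood test. *Adipoq*, the adiponectin gene, had FPKM values of 5.19, 0 and 0 against 4.36, 0.07 and 7.30, and *Plin1*, which coats fat droplets, had 2.62, 0 and 0 against 3.21, 0.14 and 2.30. In *Ptpn6*+/mev replicates 2 and 3, where both markers were listed at 0, *Pparg* was 1.43 and 1.5. The part of the adipocyte markers in the *Pparg* values was not tested. Endothelial marker sums were 226 to 240 in *Ptpn6*+/mev kidneys and 258, 88.3 and 254 in wild-type kidneys, so that wild-type replicate 2, lowest in *Pparg*, was also lowest in the sum of 6 endothelial markers, none of them at 0. This was not particular to endothelium: the same kidney was lowest for fibroblast and pericyte markers (87.0 against 268 to 321), macrophage markers (108 against 165 to 270) and podocyte markers (84.9 against 119 to 152). The part of these markers in the *Pparg* values was not tested. Of 11 PPARγ target and adipocyte genes, 8 were tested. At an unadjusted p under 0.05 in edgeR's quasi-likelihood test, 1 was lower (*Lpl*, log2 fold change -0.46) and 0 higher. Over all tested genes 6.71% were lower and 5.53% higher at that level. The median log2 fold change of the 8 was -1.25. That median was -5.88 without *Ptpn6*+/mev replicate 1 and -0.52 when only genes with at least 10 counts in every library were kept. Most abundant among them was *Fabp4*, a fatty acid carrier of fat cells and endothelium, with a log2 fold change of 0.014, and next *Cfd*, an adipocyte product, with -1.39.

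**Figure D3:**
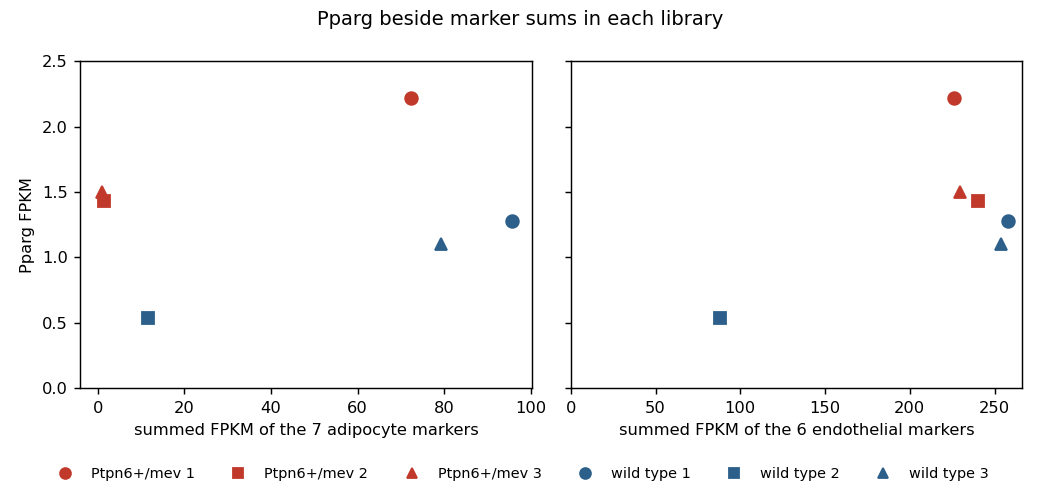
*Pparg* FPKM (vertical axis) against summed FPKM of 7 adipocyte markers (left) and 6 endothelial markers (right), with 1 point for each kidney. *Cidec* makes up 10.38 of the adipocyte sum of 11.7 in wild-type replicate 2. *Ptpn6*+/mev replicates 2 and 3 have adipocyte sums of 1.49 and 0.98 and *Pparg* values of 1.43 and 1.5, and wild-type replicate 2 is lowest in *Pparg* (0.54) and in endothelial markers (88.3), as it is in fibroblast, macrophage and podocyte markers.

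*Pparg* has 3 annotated starts in the RefSeq table, and their windows are shown because they are unlike each other in base composition. They lie on the plus strand at chr6:115360894-115361143, chr6:115362099-115362348 and chr6:115421816-115422065 of GRCm38.p6, with capitals as above.

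Pparg start 1: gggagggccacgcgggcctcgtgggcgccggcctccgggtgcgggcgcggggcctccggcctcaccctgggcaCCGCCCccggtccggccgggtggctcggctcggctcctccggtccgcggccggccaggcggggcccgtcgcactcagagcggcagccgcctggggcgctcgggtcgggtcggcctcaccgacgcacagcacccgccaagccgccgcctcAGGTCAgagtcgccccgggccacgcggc
Pparg start 2: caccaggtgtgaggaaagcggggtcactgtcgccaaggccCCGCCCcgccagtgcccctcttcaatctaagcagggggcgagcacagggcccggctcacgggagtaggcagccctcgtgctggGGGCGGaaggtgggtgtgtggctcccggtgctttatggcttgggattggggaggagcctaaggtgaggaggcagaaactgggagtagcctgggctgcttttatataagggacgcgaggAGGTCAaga
Pparg start 3: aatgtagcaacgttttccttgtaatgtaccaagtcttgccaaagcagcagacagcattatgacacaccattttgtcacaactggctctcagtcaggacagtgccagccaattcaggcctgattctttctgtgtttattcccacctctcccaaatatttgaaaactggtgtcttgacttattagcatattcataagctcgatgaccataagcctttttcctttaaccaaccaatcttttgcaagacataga

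GC content was 82.4%, 63.6% and 40.8% in that order. The first window held 1 GC box and 1 AGGTCA, the second 2 GC boxes and 1 AGGTCA, and the third neither. The counts are per gene, so the use of these starts was not measured.

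The mix of the 3 PPAR isotypes is given as shares, as a description with no test. These shares are made from the same 3 genes and so restate the differences above relative to each other. Summed FPKM of the 3 isotypes was 24.4, 20.6 and 24.3 in *Ptpn6*+/mev kidneys and 30.6, 35.6 and 31.5 in wild-type kidneys. *Ppara* made up 64.5%, 59.9% and 66.4% of that sum in *Ptpn6*+/mev kidneys and 72.6%, 81.4% and 69.1% in wild-type kidneys. The groups did not overlap, with means of 63.6% ± 3.33 and 74.3% ± 6.35 (SD, n = 3), and *Ppara* was the major isotype in every kidney. *Pparg* made up 9.11%, 6.94% and 6.17% against 4.18%, 1.52% and 3.49%, also without overlap. The share of *Ppard* overlapped, at 26.3%, 33.2% and 27.5% against 23.3%, 17.1% and 27.4%. With 3 mice a group an exact permutation test of these shares cannot go below a two-sided p of 0.10, and none was run.

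**Figure D4:**
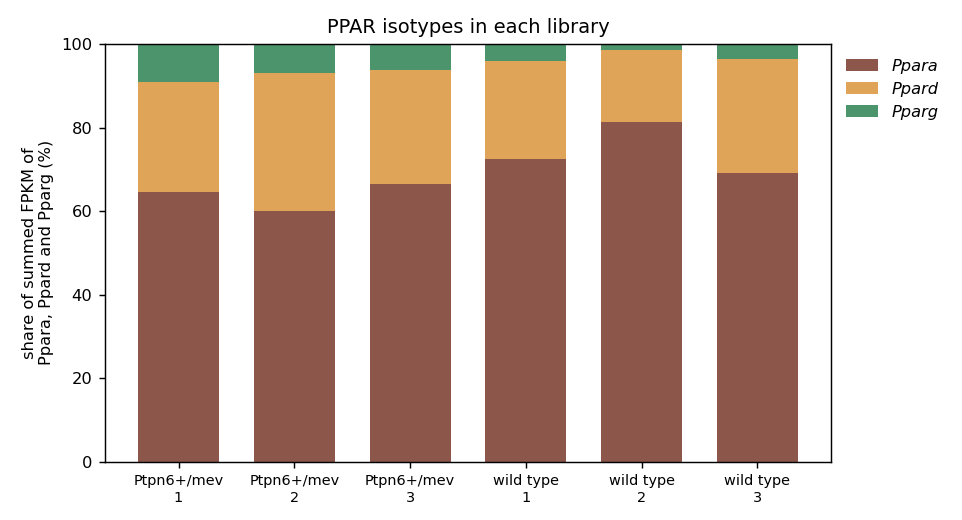
Share of the summed FPKM of *Ppara*, *Ppard* and *Pparg* (vertical axis, percent) taken by each isotype in each kidney, stacked to 100%. *Ppara* takes 59.9% to 66.4% in *Ptpn6*+/mev kidneys and 69.1% to 81.4% in wild-type kidneys.

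*Rxra* (chr2:27676440-27762957, plus strand), encoding RXRα, a form of the RXR partner of the PPARs, varied little, with a coefficient of variation of 8.51% over the 6 libraries. Its FPKM was 30.80, 29.99 and 30.78 in *Ptpn6*+/mev kidneys and 34.20, 28.67 and 35.75 in wild-type kidneys. Wild-type replicate 2 lay below all *Ptpn6*+/mev values, so the groups overlapped. The log2 fold change was -0.15 (SE 0.083, adjusted p = 0.538 in edgeR's quasi-likelihood test). *Rxra* alone exceeded the 3 PPARs together in 5 of 6 kidneys, with ratios of 1.26, 1.46 and 1.27 in *Ptpn6*+/mev kidneys and 1.12, 0.806 and 1.13 in wild-type kidneys. Its relative *Rxrb* had a mean FPKM of 21.8 and a log2 fold change of 0.045, and *Rxrg* was below the filter.

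The coactivators did not pass the test either, and *Ppargc1b* was the one with the larger difference. *Ppargc1b* (chr18:61298136-61400431, minus strand), encoding PGC-1β, had FPKM values of 2.44, 1.29 and 1.55 in *Ptpn6*+/mev kidneys and 2.45, 2.26 and 2.61 in wild-type kidneys. *Ptpn6*+/mev replicate 1 lay at the wild-type level and the other 2 below it. Means were 1.76 ± 0.603 and 2.44 ± 0.175 (SD, n = 3), with a log2 fold change of -0.54 (SE 0.25, unadjusted p = 0.0613, adjusted p = 0.436 in edgeR's quasi-likelihood test). Without *Ptpn6*+/mev replicate 1 it was -0.85, and without *Ptpn6*+/mev replicate 2 it was -0.37. *Ppargc1a* (chr5:51454250-51567726, minus strand), encoding PGC-1α, had FPKM values of 7.33, 6.76 and 6.25 in *Ptpn6*+/mev kidneys and 6.56, 5.81 and 5.65 in wild-type kidneys. The groups overlapped. Its log2 fold change from counts was -0.076 (SE 0.15, adjusted p = 0.902 in edgeR's quasi-likelihood test), whereas from limma on log2(FPKM + 1) it was 0.15, in a fit whose median over all genes was 0.062.

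The direction of *Ppargc1a* thus differed between fits that differ in unit, scaling and test. In fits to counts, its log2 fold change was 0.057 without wild-type replicate 2 and 0.0079 without *Ptpn6*+/mev replicate 3. The part of the unit in this turn was not tested. FPKM divides by a transcript length, and counts scaled to library size alone (CPM) do not. The FPKM obtained per CPM of *Ppargc1a* was 0.230, 0.248 and 0.253 in *Ptpn6*+/mev libraries and 0.242, 0.186 and 0.220 in wild-type libraries. Its highest value was 1.36 times its lowest, a spread larger than that of all but 5.54% of the 9810 genes with a mean count of at least 100, whereas *Hnf4a* and *Nr1h4* had 1.00. The unit bears on whether the groups overlap in the balance of the coactivators. In FPKM, the ratio of *Ppargc1a* to *Ppargc1b* was 3.00, 5.24 and 4.03 in *Ptpn6*+/mev kidneys and 2.68, 2.57 and 2.16 in wild-type kidneys, with no overlap. In CPM it was 3.60, 5.76 and 4.36 against 3.01, 3.77 and 2.71, and the groups overlapped.

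*Esrra* (chr19:6910977-6921813, minus strand), encoding ERRα, which drives mitochondrial genes together with the PGC-1 coactivators, was the steadiest of the 9 genes. Its FPKM was 59.69, 56.21 and 52.09 in *Ptpn6*+/mev kidneys and 58.24, 52.88 and 53.30 in wild-type kidneys. The groups overlapped throughout, with a log2 fold change of -0.053 (SE 0.096, adjusted p = 0.887 in edgeR's quasi-likelihood test). FPKM means, which carry no TMM scaling, were 56.0 ± 3.8 and 54.8 ± 2.98 (SD, n = 3), and limma on log2(FPKM + 1) gave 0.030, below the median of 0.062 over all genes in that fit.

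*Hnf4a* (chr2:163506808-163572910, plus strand), the regulator of the proximal tubule program, had the second smallest p of the 9 genes. Its FPKM was 164.05, 142.18 and 125.76 in *Ptpn6*+/mev kidneys and 203.36, 158.00 and 166.62 in wild-type kidneys. *Ptpn6*+/mev replicate 1 was above wild-type replicate 2, so the groups overlapped by that pair. Means were 144 ± 19.2 and 176 ± 24.1 (SD, n = 3), with a log2 fold change of -0.36 (SE 0.13, unadjusted p = 0.0227, adjusted p = 0.308 in edgeR's quasi-likelihood test). limma-voom with sample quality weights gave -0.49 with an adjusted p of 0.0484. *Hnf4a* is itself expressed by proximal tubule cells. The marker sums given for *Ppara*, which overlapped with *Kap* included and not without it, stand beside this difference too. *Ppara* as a share of *Hnf4a* overlapped between the groups, at 9.59%, 8.68% and 12.8% in *Ptpn6*+/mev kidneys and 10.9%, 18.3% and 13.1% in wild-type kidneys.

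*Nr1h4* (chr10:89454234-89533585, minus strand), encoding the bile acid receptor FXR, was second in abundance and varied more within the wild-type group than between the groups. Its FPKM was 93.53, 72.46 and 95.17 in *Ptpn6*+/mev kidneys and 101.08, 96.77 and 59.62 in wild-type kidneys. Wild-type replicate 3 was the lowest kidney and wild-type replicate 1 the highest, so that the *Ptpn6*+/mev values fell within the wild-type range. The log2 fold change was -0.056 (SE 0.22, adjusted p = 0.952 in edgeR's quasi-likelihood test) from counts, and was 0.089 without wild-type replicate 2 and -0.28 without wild-type replicate 3. FPKM means were 87.1 ± 12.7 and 85.8 ± 22.8 (SD, n = 3), and limma on log2(FPKM + 1) gave 0.048, also below that median of 0.062 over all genes.

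The second question was how the known targets of each receptor behaved. PPARα targets were mostly lower. Of 30 listed genes 27 were tested, *Fabp1*, *Creb3l3* and *Fgf21* being too low, and 15 were lower and 0 higher at an unadjusted p under 0.05 in edgeR's quasi-likelihood test, with a median log2 fold change of -0.72. None had an adjusted p under 0.05 there. With edgeR's exact test 10 were called, with DESeq2 6 and with limma-voom with sample quality weights 8, all lower. Over all tested genes 6.71% were lower and 5.53% higher at an unadjusted p under 0.05 in edgeR's quasi-likelihood test. Those other tools called 1.78%, 1.88% and 2.22% of all tested genes as lower, in that order. Among the most abundant targets were the lipid droplet coat gene *Plin2* (log2 fold change -1.05) and *Acaa1b*, a peroxisomal thiolase gene (-1.67). *Plin2* had FPKM values of 492, 495 and 602 in *Ptpn6*+/mev kidneys and 866, 1506 and 738 in wild-type kidneys, with wild-type replicate 2 far above the rest. *Acaa1b* had 117, 98.0 and 122 against 356, 516 and 139, and its groups did not overlap. Without wild-type replicate 2 the median of the list was -0.34, with 15 lower and 1 higher at an unadjusted p under 0.05, in a fit that gave 8.13% of all genes as lower and 9.17% as higher at that level.

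The targets of PGC-1 with ERRα and of FXR had medians closer to 0 than the PPARα targets. All 18 mitochondrial genes driven by PGC-1 and ERRα were tested. Of these, 2 were lower and 0 higher at an unadjusted p under 0.05 in edgeR's quasi-likelihood test. Over all tested genes 6.71% were lower and 5.53% higher at that level. The median log2 fold change of the 18 was -0.13. The fold change was negative in 17 of the 18 genes and positive in 1, and the median was -0.013 without wild-type replicate 2. Their 3 most abundant members were *Atp5b* (-0.14), *Cox4i1* (-0.12) and *Atp5a1* (-0.14), which encode parts of ATP synthase and of cytochrome c oxidase. Of 9 FXR targets 6 were tested, 1 was lower and 0 higher, and the median was -0.034, or -0.13 to 0.031 with 1 library left out. That one was *Abcc2*, an export pump (-0.43), and the genes of the bile acid exporter *Slc51b* (-0.088) and *Slc51a* (-0.11) followed it in abundance. Single genes over the whole table had a middle 50% of -0.15 to 0.14, a spread of single genes that does not judge the median of a list.

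Beyond the 9 genes, 31 other nuclear receptors and coregulators were listed and 29 tested. Of the 29, 5 were lower and 0 higher at an unadjusted p under 0.05 in edgeR's quasi-likelihood test. Over all tested genes 6.71% were lower and 5.53% higher at that level. The median log2 fold change of the 29 was -0.011. Among the 5 were *Cebpa* (-0.51, unadjusted p = 0.00117), *Lpin1* (-0.63), *Esrrg* (-0.42) and *Ep300* (-0.22), named here after their values were seen. *Cebpa*, a factor of fat and liver cells, had FPKM values of 14.82, 18.13 and 17.21 in *Ptpn6*+/mev kidneys and 23.60, 22.35 and 22.33 in wild-type kidneys, without overlap. None of the 29 had an adjusted p under 0.05. Among the most abundant, *Nr1h2* (a liver X receptor) and the corepressor gene *Ncor1* had log2 fold changes of 0.027 and -0.023.

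**Figure D5:**
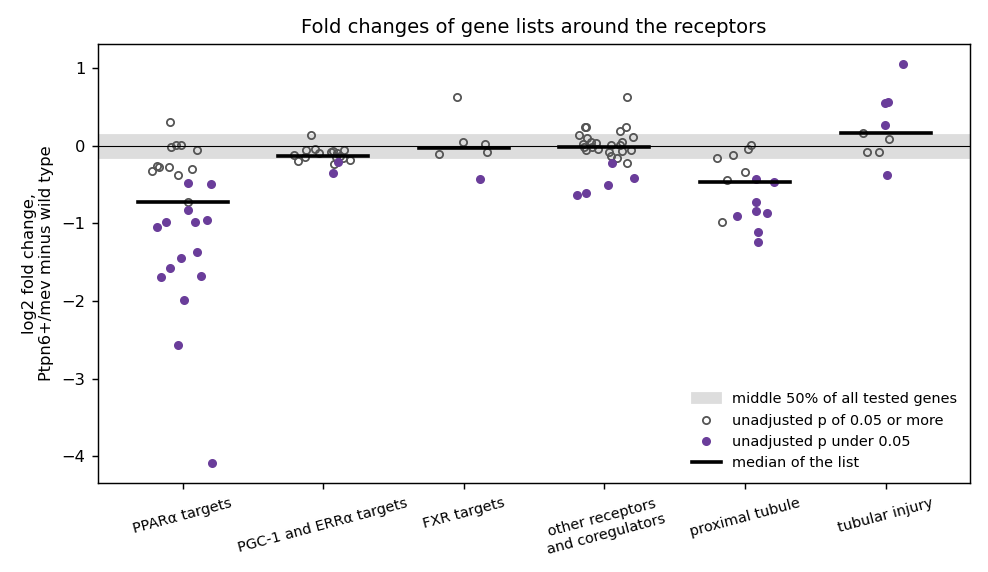
Log2 fold change (*Ptpn6*+/mev minus wild type, vertical axis) of each tested gene in 6 lists, filled where the unadjusted p was under 0.05, with the median of each list as a bar and the middle 50% of all tested genes in grey. The median is -0.72 for PPARα targets, -0.46 for proximal tubule markers and -0.13 for PGC-1 and ERRα targets. The grey band describes single genes and does not judge the medians.

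The genes that ran most closely with each regulator over the 6 libraries were found by the root mean square (RMS) difference of log2 CPM centred on each gene's mean, among 12182 genes. Nearest to *Ppara* were *Zc4h2* (0.0939) and *Gstp3* (0.104), and nearest to *Pparg* were *Thrsp* (0.119) and *Gas2* (0.129). *Hnf4a* ran closest to *Epha4* (0.0232) and *Iyd* (0.0599), and *Rxra* to *Hnrnpd* (0.0146) and *Skiv2l* (0.0163). For *Ppargc1b* the nearest gene, *Aldh8a1* (0.159), was farther off than the nearest gene of any other member. The others were *Ago2* for *Ppard*, *Trnt1* and *Fam216a* for *Ppargc1a*, *Borcs5* and *Igfbp7* for *Esrra*, and *A430033K04Rik* and *Twistnb* for *Nr1h4*, at RMS differences from 0.0219 to 0.0675. All points share libraries, depth and scaling, and a small distance is also easier to reach for a gene that varies little.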

How the data were processed

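mRNA of 6 kidneys was sequenced as paired reads of 150 bases. Per the labels and the study's methods, reads were aligned to GRCm38.p5 with TopHat (TopHat2 2.0.3.12 in the submitters' processing notes, which also name Bowtie2, Cufflinks and RSEM). The authors made and deposited an estimated count for each gene and library, an expected count that need not be whole, and the tool is not given in the sources used here. The authors also deposited FPKM values, which divide by transcript length and library size. The study's methods name Cufflinks for FPKM, and the length used in each library is not given in the sources used here. Total counts per library were 10271590 to 12361745.

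Counts were rounded, filtered with filterByExpr to 13036 genes and scaled by TMM, and groups were compared with the quasi-likelihood F-test of edgeR 4.0.16 in R 4.3.3, with Benjamini-Hochberg adjustment over all tested genes at a threshold of 0.05. SE is the absolute log2 fold change divided by the square root of F. FPKM served for levels. Alternatives were 16: edgeR's exact test, DESeq2 1.42.0, other scalings and filters, limma 3.58.1 on log2(FPKM + 1) and log2(FPKM + 0.1), a replicate block, each of 6 libraries left out, and limma-voom with sample quality weights, which was added after seeing the data. The code was tested on simulated data. Positions come from GENCODE M21 (GRCm38) and sequences from RefSeq (GRCm38.p6). Tables and figures used Python 3.11.15, pandas 2.3.3 and matplotlib 3.10.9.

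The members, lists and alternatives were chosen with earlier results of these data known. Genes named are the 9 members, *Ptpn6*, from each list those with an adjusted p under 0.05 and the 3 most abundant, 3 adipocyte genes, and the 2 genes nearest to each member, besides those said to be chosen after their values were seen or noted as not tested, and some genes that this rule selects are not reported here.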

Additional observations from a re-analysis of the deposited data

How the results depend on the processing

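Fold changes of *Ppard*, *Pparg*, *Ppargc1b* and *Rxra* kept their direction, and an adjusted p of 0.05 or more, under all 16 alternatives. *Ppara* stayed lower under all 16, from -0.91 to -0.64 on the log2 scale, and passed an adjusted p of 0.05 in 4: DESeq2 (-0.81), edgeR's exact test (-0.81), limma-voom with sample quality weights (-0.68) and without wild-type replicate 2 (-0.64). Leaving out 1 library in turn gave -0.91 to -0.64. *Hnf4a* passed only with limma-voom with sample quality weights (-0.49). With limma on log2(FPKM + 1) and log2(FPKM + 0.1) the median of all genes was 0.062 and 0.076, against -0.002 in the fit to counts. Signs turned there for *Ppargc1a* (0.15 and 0.17), *Esrra* (0.0296 and 0.0301) and *Nr1h4* (0.0475 and 0.0484), of which *Esrra* and *Nr1h4* lay below that median, and with 1 library left out for *Ppargc1a* (-0.18 to 0.057) and *Nr1h4* (-0.28 to 0.089). For these and other moves the cause was not tested. Over all genes, 18 had an adjusted p under 0.05, against 387 with DESeq2, 390 with edgeR's exact test, 492 with limma-voom, 52 without a filter, and 1 to 231 with 1 library left out, the 231 without wild-type replicate 2. Of the 9 genes, DESeq2 called 1, edgeR's exact test 1, limma-voom 2, and fits with 1 library left out 0 to 1. The median of PGC-1 and ERRα targets was -0.0510 and -0.0511 with limma on FPKM under these pseudocounts, again with all genes at 0.062 and 0.076, -0.060 with limma-voom, and -0.18 to -0.013 with 1 library left out. That of PPARγ target and adipocyte genes was -5.88 to -0.66 with 1 library left out, and that of PPARα targets -0.96 to -0.34.

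Same-numbered libraries of the 2 groups did not deviate together (correlations of -0.160, -0.208 and -0.132, against -0.027 to 0.201 for other pairs). With 3 mice a group these values cannot settle whether same-numbered mice shared more than a number. With the replicate block, 1 gene in all had an adjusted p under 0.05, and *Ppara* had -0.81 with an adjusted p of 0.279 in edgeR's quasi-likelihood test. Depth limits *Pparg*, with 12 to 45 counts, more than the other 8 genes.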
